A study of Mus musculus with 2 samples.

Results

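A set of 10 genes was followed in RNA from cultured Th1 cells, namely 5 genes of the S100 family (S100a4, S100a6, S100a10, S100a11 and S100a13), 4 annexin genes (Anxa1, Anxa2, Anxa5 and Anxa6) and the galectin-1 gene Lgals1. They were picked by symbol, and all 10 were found among the 24421 gene symbols of the deposited tables. The tables hold 1 library labelled WT Th1 (Chi3l1+/+) and 1 library labelled KO Th1 (Chi3l1-/-), both from C57BL/6J mice of 6 to 8 weeks. Chi3l1 is the gene of the secreted chitinase-like protein chitinase 3-like 1, and no Cre driver is given for its deletion in the KO mice. Naïve CD4 T cells were activated through CD3 and CD28 while IL-12 and IL-2 were supplied and IL-4 was blocked, the culture that gives IFNγ-producing Th1 cells. How many mice went into each library and how long the sequenced cells were cultured were not given in the sources used here. No naïve library was analysed here, so a rise from the naïve state could not be measured, and the comparison was KO Th1 against WT Th1. With 1 library per genotype (n = 1) there was no test between them, and each difference is a description of these libraries.

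S100 proteins are small calcium sensors with EF-hand loops that work mostly as dimers and pass a calcium signal on by binding other proteins. Annexins bind acidic phospholipids of membranes when calcium rises. The families meet in fixed pairs, S100A10 with annexin A2 and S100A11 with annexin A1. Galectin-1 is a lectin that binds galactose-containing sugars on surface proteins. In T cells these genes are known as part of the program that separates effector and memory cells from naïve cells.

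Each deposited value was read as log2 of a normalized read count plus 1. After this step was undone, low values lay on near-whole multiples of the worth of 1 read, 0.968 in WT Th1 and 0.967 in KO Th1, and read numbers were rebuilt with these steps. The rebuilt reads summed to 70711509 in WT Th1 and 63024117 in KO Th1. Chi3l1 itself, listed as Chil1, had 1 read in the library labelled WT and 103 reads in the library labelled KO, which goes against the labels. Values per gene do not show whether those reads lie outside the deleted part. Each direction below is therefore that of the labels only. Ifng, the cytokine gene that defines Th1 cells, had a log2 fold change of 1.32 (KO Th1 minus WT Th1, counting interval 1.27 to 1.38). The T cell identity was clear in both libraries, with all 11 T cell markers, Cd3e, Cd4, Tbx21 and Ifng among them, at deposited values of at least 11.72 in WT Th1 and 11.91 in KO Th1. All 10 genes of a list for naïve cells were also expressed, from 8.66 to 17.54 in WT Th1 and from 8.31 to 17.56 in KO Th1. Among them, Ccr7, the chemokine receptor that guides T cells into lymph nodes, was high (16.73 and 16.56).

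The 10 genes ranged from 1.53 to 15.03 on the log2 scale in WT Th1 and from 0 to 15.23 in KO Th1, where the highest genes of all reached 20.89 and 20.09. Anxa2 and Anxa6 were the most abundant of the 10, while S100a4 was at or near 0 and S100a6 and Anxa1 had fewer than 50 reads in each library. Levels were compared between genes as normalized counts per kilobase of the longest protein-coding transcript. On this scale Anxa2, which bridges and bundles membranes and actin, was first, with 16519 in WT Th1 and 17221 in KO Th1. It ranked 306 of 14830 genes in WT Th1 and 260 of 14759 in KO Th1. Anxa6, the annexin with a duplicated core, was second with 13460 and 15387 normalized counts per kilobase. Lgals1 came next with 5482 and 5197, followed by S100a10 with 3873 and 3825. S100a11, S100a13 and Anxa5 formed a middle group, from 927 (Anxa5) to 1496 (S100a11) in WT Th1 and from 1053 (Anxa5) to 1221 (S100a13) in KO Th1. At the bottom, S100a6 had 50.4 and 39.7, Anxa1 had 24.9 and 5.75, and S100a4 had 3.80 and 0 normalized counts per kilobase. The counting intervals (95%, exact Poisson) of neighbours in this order overlapped for S100a13 and Anxa5 in WT Th1. In KO Th1 they overlapped for S100a13 and S100a11, for S100a11 and Anxa5, and for Anxa1 and S100a4. These intervals hold counting error only, take reads as independent molecules, and say nothing of the spread between cultures.

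**Figure D1:**
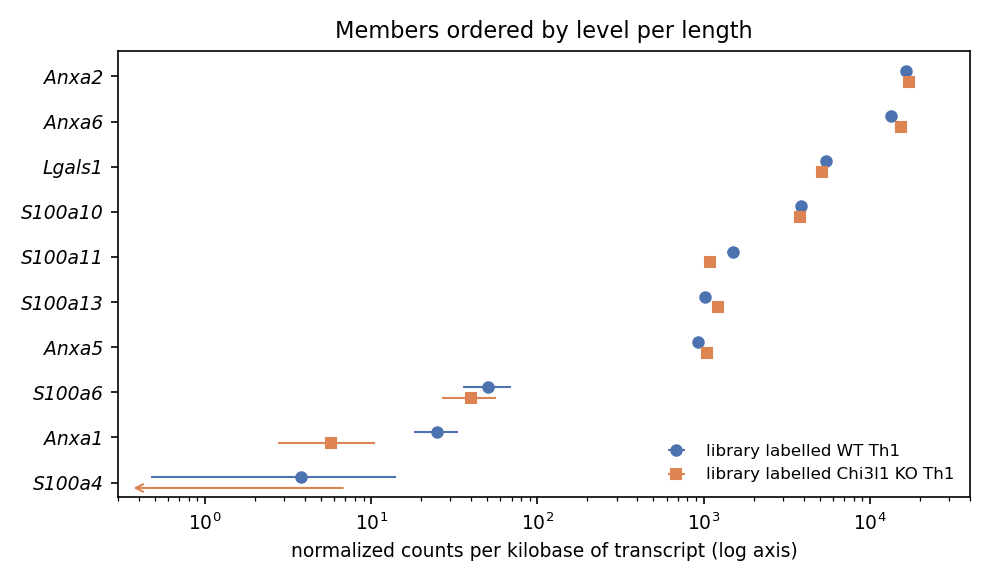
Level of each gene as normalized counts per kilobase of transcript on a log axis (points, 1 library each; bars, 95% exact Poisson counting intervals), ordered by the WT Th1 library. Anxa2 and Anxa6 lie at 13460 or more in both libraries and S100a6, Anxa1 and S100a4 at 50.4 or less, and the arrow marks S100a4 with 0 reads in KO Th1.

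The sum over the 10 genes was 0.0988% of all normalized counts in WT Th1 and 0.120% in KO Th1. The totals behind these shares were unequal, 6.84e+07 normalized counts in WT Th1 and 6.09e+07 in KO Th1. The shares therefore differ more than the sums, which were 16.05 and 16.16 as log2 of the sum plus 1. Anxa2 and Anxa6 together made up 84.9% of the summed counts of the 10 genes in WT Th1 and 86.3% in KO Th1. These counts were not divided by transcript length, so long transcripts such as that of Anxa6 weigh more here than per kilobase. The S100 genes contributed 4328 reads in WT Th1 and 4221 in KO Th1, most of them from S100a10 (2741 and 2711 reads).

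The low and the high genes are set side by side here by the 250 bases upstream of their RefSeq start (GRCm38.p6, 5′ to 3′ on the strand of the gene), to show how their promoters differ. Capitals mark CpG dinucleotides. S100a4 and Anxa1 stand for the lowest genes and S100a11 and Anxa2 for expressed members of the same families.
S100a4: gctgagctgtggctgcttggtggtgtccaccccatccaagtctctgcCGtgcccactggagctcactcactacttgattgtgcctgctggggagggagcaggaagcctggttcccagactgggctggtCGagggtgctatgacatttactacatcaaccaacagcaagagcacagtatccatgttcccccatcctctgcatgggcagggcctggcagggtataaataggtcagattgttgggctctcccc
Anxa1: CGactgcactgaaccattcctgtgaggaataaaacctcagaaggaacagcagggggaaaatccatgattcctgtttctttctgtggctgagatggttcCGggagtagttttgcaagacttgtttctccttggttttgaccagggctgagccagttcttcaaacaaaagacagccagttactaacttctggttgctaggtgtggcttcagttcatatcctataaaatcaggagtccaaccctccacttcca
S100a11: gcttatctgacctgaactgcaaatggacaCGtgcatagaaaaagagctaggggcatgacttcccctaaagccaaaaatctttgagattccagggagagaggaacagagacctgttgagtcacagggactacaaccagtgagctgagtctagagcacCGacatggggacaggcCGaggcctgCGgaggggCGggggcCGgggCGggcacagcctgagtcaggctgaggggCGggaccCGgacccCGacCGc
Anxa2: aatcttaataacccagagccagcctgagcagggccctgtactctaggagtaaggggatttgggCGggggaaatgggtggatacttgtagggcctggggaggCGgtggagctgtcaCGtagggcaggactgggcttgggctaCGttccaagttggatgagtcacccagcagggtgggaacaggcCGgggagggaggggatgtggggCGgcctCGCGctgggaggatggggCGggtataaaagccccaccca
These windows are chr3:90603520-90603769 (plus strand) for S100a4, chr19:20390672-20390921 (minus strand) for Anxa1, chr3:93520246-93520495 (plus strand) for S100a11 and chr9:69453433-69453682 (plus strand) for Anxa2. RefSeq promoters were found for 7 of the 10 genes, and S100a10, Anxa6 and Lgals1 had no entry in the table. The windows of S100a4 and Anxa1 held 2 CpG each and that of S100a6 held 3, whereas Anxa2 held 9, S100a11 held 11, and S100a13 and Anxa5 held 13 each. The median was 10 CpG over 17224 promoters of genes in the tables. It was 17 over the 6776 promoters of genes that reached 8 on the log2 scale in both libraries, and 2 over the 5576 promoters of genes at 0 in both. The letters TATAAA, searched on both strands, were found in the windows of S100a4, Anxa1 and Anxa2 and in 11.9% of all promoters. GGGCGG, which contains a CpG itself, was found 3 times in S100a11 and 3 times in Anxa2, in none of the other 5 windows, and in 43.1% of all promoters. TGANTCA, the letters bound by AP-1 factors, was found 2 times in S100a11 and once in Anxa2, and in 6.49% of all promoters. TGTGGT, the core letters of Runx sites, was found 3 times in S100a6 only and in 12.1% of all promoters, and CCAAT in S100a6 only and in 35.9%. These matches describe letters, and whether a factor binds there was not measured.

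All 5 S100 genes lie on chromosome 3 in GRCm38, in the region where most of the family is gathered. S100a13, S100a4 and S100a6 are in a cluster of 12 S100 genes that spans 185 kb (chr3:90511034-90695721). S100a11 and S100a10 are the pair of genes 2825 kb further along (chr3:93520488-93564643). Within the cluster, S100a13 alone had over 100 reads in both libraries, with 757 in WT Th1 and 903 in KO Th1. Its head-to-head neighbour S100a1, the start of which is 0.043 kb away on the other strand, had 30 and 5 reads. S100a14, S100a16, S100a5 and S100a7a were at 0 in both libraries, S100a2 and S100a4 had 2 reads in WT Th1 and 0 in KO Th1, and S100a3 had 3 and 11 reads. S100a8 and S100a9, the calgranulins of neutrophils at the end of the cluster, had 5 and 3 reads in WT Th1 and 0 in KO Th1. In both libraries, genes with over 100 reads thus lay near one edge of the cluster and in the distant pair.

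**Figure D2:**
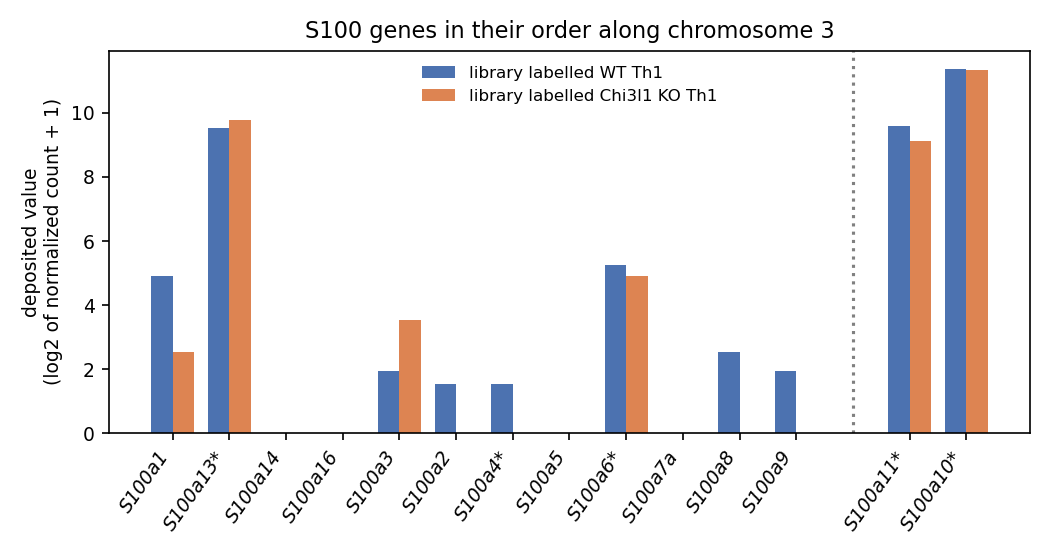
Deposited value (log2 of normalized count plus 1) of the 14 S100 genes of chromosome 3 in their order along the chromosome, with 1 bar per library; the dotted line marks the gap of 2825 kb and asterisks mark the 5 genes followed here. S100a13 in the first cluster, and S100a11 and S100a10 beyond the gap, are the genes above a log2 value of 9 in both libraries.

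Between the libraries, Anxa1 was 4.01-fold lower in KO Th1, and the 8 other genes with more than 3 reads were within 1.5-fold of WT Th1. No member was at least 2-fold higher in KO Th1, where 4.7% of all genes were. Anxa1 and S100a4 were past the 2-fold line in the lower direction, 2 of 10 genes, beside 5.81% of all genes. S100a4 rested on 2 reads in WT Th1 and 0 in KO Th1, under the floor of 3 reads in both, so no fold is given for it. Among genes with more than 3 reads in at least one library, 1 of 9 members was 2-fold lower and 0 were 2-fold higher, against 7.74% and 6.03% of all such genes. At a line of 1.5-fold the members' counts were the same, 0 higher and 2 lower, where 9.6% of all genes were higher and 11.4% lower. At least 25% higher in KO Th1 were 0 members and 16.6% of all genes, and at least 20% lower were 4 members and 18.5% of all genes. The median log2 fold change, KO Th1 minus WT Th1, was -0.048 over the 10 members and -0.018 without S100a4, against 0 over all genes and -0.011 over the 8886 well expressed genes, those that reached 8 on the log2 scale in both libraries. Over those 8886 genes the middle 90% of log2 fold changes lay between -0.63 and 0.54. All 7 well expressed members fell inside that range, and 0 of them were past 2-fold, where 0.461% of well expressed genes were higher and 0.743% lower. Anxa1 did not reach this level. Of the 1149 genes with more than 3 reads that were 2-fold lower, 66 were well expressed, so most such calls lay at lower counts. Each fold change below is given with a 95% exact binomial interval of the ratio of rebuilt reads.

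**Figure D3:**
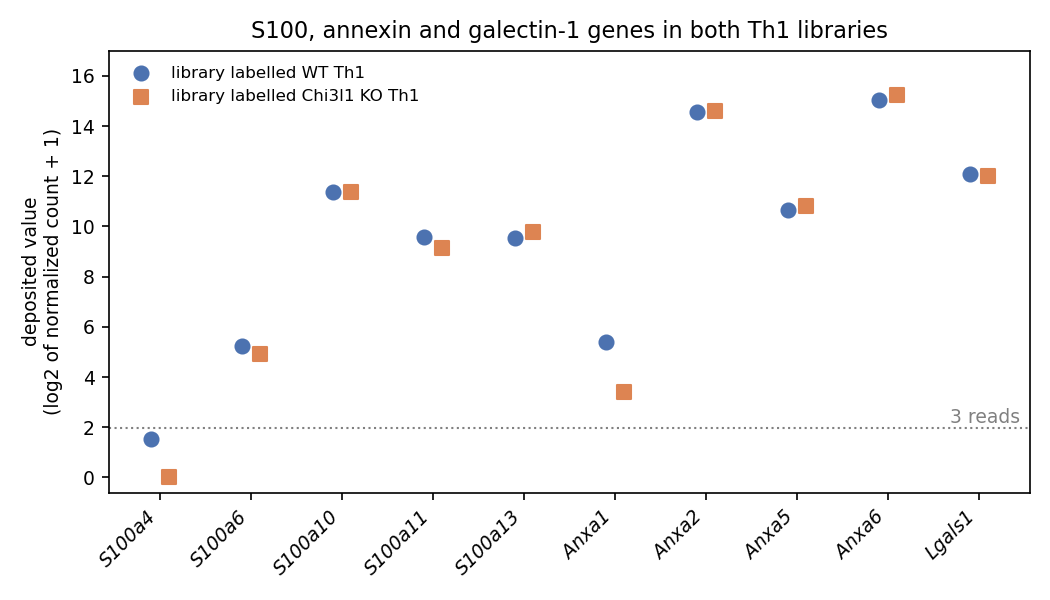
Deposited value (log2 of normalized count plus 1) of the 10 genes in the library labelled WT Th1 (circles) and the library labelled Chi3l1 KO Th1 (squares), 1 library each; the dotted line is the value of 3 reads. Most pairs nearly coincide, and Anxa1 shows the widest gap, from 5.42 to 3.41.

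Of the S100 genes, S100a10, the member that does not bind calcium and is held by annexin A2, stood at 11.37 (log2) in WT Th1 and 11.36 in KO Th1. Its log2 fold change was -0.018 (interval -0.095 to 0.059). S100a11, which pairs with annexin A1, had 9.58 and 9.13, a log2 fold change of -0.45 (-0.61 to -0.30). This was the lowest of the 7 well expressed members, and 11.2% of the 8886 well expressed genes had a lower one. Transcripts of 2 processed pseudogenes, Gm12854 and Gm7665, are at least 95% identical to S100a11 over 297 bases. Since reads with several alignments were counted, the value of S100a11 is uncertain. S100a13, which takes part in the release of FGF1 and IL-1α from cells, had 9.52 and 9.77, a log2 fold change of 0.25 (0.11 to 0.39). S100a6, also called calcyclin, had 5.24 and 4.91 from 38 and 30 reads, a log2 fold change of -0.33 with 0 inside its interval (-1.08 to 0.39). S100a4, which binds non-muscle myosin heavy chain 9, had 1.53 in WT Th1 and 0 in KO Th1. An unlisted gene, Gm42674, overlaps S100a4 on the same strand and shares 302 bases of transcript with it.

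Of the annexins, Anxa6 had 15.03 in WT Th1 and 15.23 in KO Th1, a log2 fold change of 0.19 (0.17 to 0.21). Anxa5, whose protein binds phosphatidylserine on dying cells, had 10.65 and 10.83, a log2 fold change of 0.18 (0.088 to 0.28). Anxa2 had 14.55 and 14.61, a log2 fold change of 0.060 (0.035 to 0.085). The microRNA gene Mir3109 lies inside the span of Anxa2 on the same strand and was listed at 11.32 and 11.43. Mir7009 overlaps Anxa5 on the same strand and was listed at 6.54 and 6.46. Whether reads were shared between these genes was not tested. These 3 annexins were all slightly higher in KO Th1, and 27.4% of well expressed genes had a higher log2 fold change than Anxa6. Anxa1, the annexin that acts outside cells through formyl peptide receptors, went the other way. It had 5.42 in WT Th1 and 3.41 in KO Th1, from 43 and 10 reads, a log2 fold change of -2.01 (-3.26 to -1.09). The receptor genes Fpr1 and Fpr2 were at 0 in both libraries.

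Markers of other cell types moved beside Anxa1, which neutrophils and macrophages also express. The naïve CD4 T cells of the study were isolated by magnetic or flow sorting, a step meant to remove both cell types before culture. Of 8 neutrophil markers in the tables, 4 of the 4 with more than 3 reads were at least 2-fold lower in KO Th1. One of them, S100a8, had 5 and 0 reads, with 0 inside its counting interval. Among all genes with more than 3 reads, 7.74% were at least 2-fold lower and 6.03% at least 2-fold higher. These shares are also the background for the macrophage or monocyte list. The 8 neutrophil markers summed to 84 reads in WT Th1 and 5 in KO Th1, with Camp and Retnlg at 0 in both. The 12 macrophage or monocyte markers summed to 721 and 617 reads, with Adgre1, Ms4a7, C1qa, C1qb and C1qc at 0 in both. Of the 7 macrophage or monocyte markers with more than 3 reads, 2 were at least 2-fold lower in KO Th1 (Lyz2, 34 and 2 reads, and Cd14, 12 and 0) and 1 at least 2-fold higher (Mrc1, 0 and 29), while Csf1r had 97 and 174 reads. The 6 dendritic cell markers summed to 76 and 126 reads, with Siglech and Cd209a at 0 in both. They went in both directions, with Itgax at 44 and 5 reads, Flt3 at 18 and 68, Zbtb46 at 14 and 48 and Xcr1 at 0 and 5. The 4 B cell markers summed to 875 and 1614 reads. Sums for CD8 T cells (839 and 835 reads) and NK cells (17 and 15) also held opposite moves. Cd8a had 289 and 438 reads and Cd8b1 550 and 397, while Ncr1 had 0 and 6 and Klrb1c 17 and 9. Sums for the remaining lists were 148 and 105 reads for fibroblasts (Col1a1 alone, with Col1a2, Col3a1 and Pdgfra at 0), 101 and 54 for platelets, and 4 and 0 for erythroid cells. The endothelial list had 21113 and 15690 reads, nearly all from Pecam1, which T cells express too. The part of these cells in the value of Anxa1 was not tested. In bulk RNA, fewer cells of a type and less RNA per cell cannot be told apart.

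Lgals1 stood at 12.10 (log2) in WT Th1 and 12.02 in KO Th1, a log2 fold change of -0.077 (-0.14 to -0.017). It was not the most abundant galectin. Lgals9, the galectin bound by Tim-3, had 12293 normalized counts per kilobase in WT Th1 and 10344 in KO Th1, which was 2.24 times the level of Lgals1 in WT Th1 (counting interval 2.17 to 2.32) and 1.99 times in KO Th1 (1.92 to 2.06). Lgals3, the chimeric galectin, had 4056 and 5869 normalized counts per kilobase. It was below Lgals1 in WT Th1 (0.740 times, 0.712 to 0.769) and above it in KO Th1 (1.13 times, 1.09 to 1.17). These levels rest on the longest protein-coding transcripts, with 1586 bases for Lgals9, 1419 for Lgals3 and 800 for Lgals1. The place of Lgals3 beside Lgals1 depends on the length taken, and a shorter one would raise it in both libraries.

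**Figure D4:**
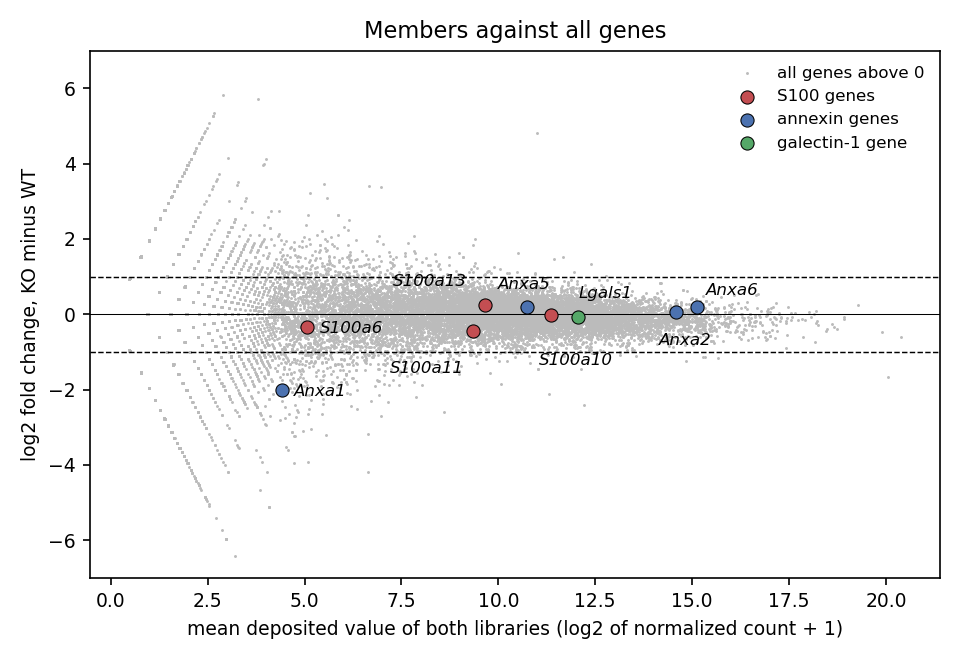
Log2 fold change (library labelled KO minus library labelled WT) against the mean deposited value for all genes above 0 in either library (grey) and for 9 of the 10 genes followed here (coloured); S100a4 is left out because it had at most 2 reads. Dashed lines mark 2-fold, and Anxa1 at -2.01 is the only coloured point beyond them.

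Ratios of levels were then taken within each library for genes whose proteins pair, and for Anxa6 and Anxa5. S100a10 had 0.234 times the level of Anxa2 per kilobase in WT Th1 (counting interval 0.225 to 0.244) and 0.222 times in KO Th1 (0.213 to 0.231), and these intervals overlap. S100a11 was 60.1 times Anxa1 in WT Th1 (44.3 to 83.8) and 189.7 times in KO Th1 (102 to 396). Anxa6 was 14.5 times Anxa5 in WT Th1 (13.8 to 15.3) and 14.6 times in KO Th1 (13.95 to 15.3). Such ratios between genes depend on the transcript length taken, which the intervals do not hold. With median transcript lengths, S100a10 had 4566 normalized counts per kilobase beside 31766 for Anxa2 in WT Th1, and 4510 beside 33115 in KO Th1. Anxa6 then had 13509 beside 1421 for Anxa5 in WT Th1, and 15442.5 beside 1615 in KO Th1. S100a11 and Anxa1 hardly moved, with 1496 beside 25.3 in WT Th1.

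The rest of the 3 families ranged from 0 to 14.25 on the log2 scale in WT Th1. Of 28 other S100, annexin and galectin genes in the tables, 8 were at 0 in both libraries and 17 had more than 3 reads in at least one. Of these 17, 1 was at least 2-fold higher in KO Th1 (S100a3, 3 and 11 reads) and 4 were at least 2-fold lower, beside 6.03% and 7.74% of all genes with more than 3 reads. The lower ones were S100a1 (30 and 5 reads), Anxa3 (23 and 9), S100a8 (5 and 0) and Anxa8 (7 and 0), and S100a8 and Anxa8 are named for their fold although they fall outside the naming rule. All 5 had at most 30 reads. Of the genes that reached 8 on the log2 scale in either library, Anxa11 had 12.66 in WT Th1 and 12.03 in KO Th1, a log2 fold change of -0.63 (-0.69 to -0.58). Pseudogene transcripts share sequence with Anxa11, and its value is uncertain. Anxa7, the annexin of granule fusion, had 0.082 (0.040 to 0.12), Anxa4 had 0.41 (0.22 to 0.60) and Anxa9 had 0.23 (0.023 to 0.44). Among galectins, Lgals3 had a log2 fold change of 0.53 (0.49 to 0.58), Lgals8 had 0.24 (0.15 to 0.34), Lgals7 had -0.10 (-0.33 to 0.12) and Lgals9 had -0.25 (-0.28 to -0.22). Lgals8 overlaps the expressed gene Heatr1 on the other strand, and whether strand was used in counting was not given in the sources used here. S100pbp, which is named for binding S100P and is no S100 gene itself, had -0.18 (-0.31 to -0.052).

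Binding partners and receptors were looked at next. Of 17 listed genes, 14 had more than 3 reads in at least one library, 1 was at least 2-fold higher (Plat, 3 and 17 reads) and 1 at least 2-fold lower (Dysf, 23 and 5 reads) in KO Th1, beside 6.03% and 7.74% of all genes with more than 3 reads. Ahnak, the giant scaffold bound by the S100A10 and annexin A2 complex, stood at 10.56 (log2) in WT Th1 and 10.53 in KO Th1, a log2 fold change of -0.039 (-0.14 to 0.064). Myh9, the myosin bound by S100A4, had 13.27 and 13.06, a log2 fold change of -0.21 (-0.25 to -0.17), beside at most 2 reads of S100a4. Cacybp, which binds S100A6, had 0.46 (0.31 to 0.61). The penta-EF-hand proteins Pdcd6 and Sri, which bind annexins, had 0.50 (0.45 to 0.55) and 0.38 (0.34 to 0.43). Ager, the gene of the S100 receptor RAGE, had -0.39 (-0.50 to -0.28). Of the glycoproteins that galectin-1 binds, Ptprc (CD45) had 0.24 (0.22 to 0.26), Spn (CD43) had -0.27 (-0.29 to -0.25), Cd2 had 0.14 (0.098 to 0.18), Cd7 had -0.48 (-0.71 to -0.27) and Lgals3bp had -0.16 (-0.23 to -0.092).

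A list of genes that rise beside this family in effector T cells were looked at in the same way. Of these 15 genes, 2 were at least 2-fold lower and 0 at least 2-fold higher in KO Th1. Of all genes with more than 3 reads, 7.74% were lower and 6.03% higher. Among the 14 well expressed genes of the list, Ccl5 alone was 2-fold lower and 0 were higher, beside 0.743% and 0.461% of all well expressed genes. The median log2 fold change of the 15 genes was -0.15. The lower ones were Ccl5, the chemokine of cytotoxic cells (9.37 and 8.01, log2 fold change -1.36, interval -1.57 to -1.16), and Cxcr3, the chemokine receptor of Th1 cells (8.05 and 6.82, log2 fold change -1.23, interval -1.57 to -0.92). Of the 10 genes for naïve cells, all well expressed, 0 were past 2-fold in either direction, and their median log2 fold change was -0.26. Since 0.461% of all well expressed genes were 2-fold higher and 0.743% lower, a count of 0 says little about this list.

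Transcripts rich in GC had lower log2 fold changes. Over well expressed genes the median went from 0.24 in the lowest of 20 bins of GC content to -0.46 in the highest. The 10 genes had between 43.6% (Anxa1) and 54.9% (Lgals1) GC. With this trend removed, Anxa6 had 0.31, S100a13 had 0.38, S100a11 had -0.50 and Anxa1 had -2.20. Anxa2 lay between 0.060 and 0.20 over the 9 alternatives, 5 of which were outside its counting interval, and Anxa6 between 0.19 and 0.37, also with 5 outside. Among the other genes named, the sign turned for Myh9 (0.031), Lgals3bp (0.039) and Lgals7 (0.24) with the GC trend removed. The log2 fold changes of Ager (-0.045), Ptprc (0.034), Sri (0.15), Cacybp (0.23), Lgals8 (0.12) and Anxa7 (0.0069) then moved towards 0 by over 1.5 times, and those of Ahnak (-0.14) and S100pbp (-0.35) away from it. The median of the effector list became 0.027 and that of the naïve list -0.31. The small values of S100a10 and Lgals1 changed sign under other processing, S100a10 between -0.069 and 0.12 and Lgals1 between -0.077 and 0.075. Setting the library totals equal without the ribosomal precursor Rn45s, which took 2.83% of normalized counts in WT Th1 and 1.0% in KO Th1, moved the median of well expressed genes by 0.14, and scaling to Actb moved it by 0.12. Under either scaling 6 members were higher and 4 lower, compared to 4 higher and 6 lower as deposited.

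**Figure D5:**
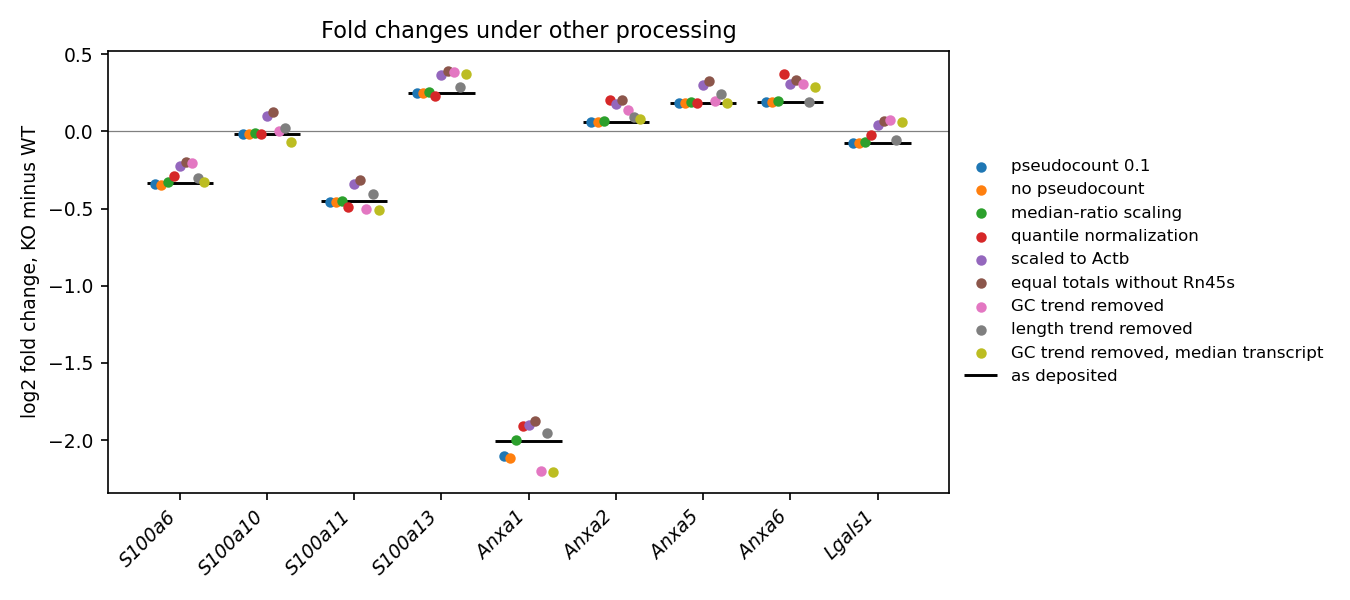
Log2 fold change (library labelled KO minus library labelled WT) of 9 genes as deposited (black lines) and under 9 other ways of processing (coloured points); S100a4 is left out because it had at most 2 reads. Anxa1 stays between -2.21 and -1.88, while S100a10 and Lgals1 lie on both sides of 0.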

How the data were processed

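RNA of cultured Th1 cells was sequenced from both ends by the authors after SENSE mRNA-Seq library preparation. Per the labels and the methods, reads were mapped with TopHat (build mm10), and unique and multiple alignments were counted for edgeR. The deposited tables give 1 log2 value per gene symbol and library, read here, from their spacing, as log2 of 1 plus a normalized count. After rescaling by the worth of 1 read (range over genes with 1 read, 0.917 to 0.957), 99.9% of values under 30 were within 0.1 of a whole read.

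The log2 fold change is the deposited value of KO Th1 minus that of WT Th1. Intervals are 95% Clopper-Pearson (ratios) and Poisson (levels), for counting error only. The 10 genes and all lists were chosen with earlier results of these data known. Of the other family and partner genes, those that reached 8 on the log2 scale in either library, or at least 10 reads and a 2-fold difference, were named, and of the effector and naïve lists, those past 2-fold at that level. With 2 libraries no likeness of pattern between genes was computed. Positions, and lengths and GC content of the longest protein-coding transcript (of any kind where there is none), came from GENCODE M21 (GRCm38, the build of mm10), which held 95.7% of symbols. Near-identical transcripts were sought with blastn (at least 95% identity over 100 bases). Scripts ran in Python 3.11.15 with scipy 1.17.1, pandas 2.3.3, matplotlib 3.10.9 and numpy 2.4.6 and were tested on simulated data.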

Additional observations from a re-analysis of the deposited data

How the results depend on the processing

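Leaving out a library was not possible with 1 per genotype. No paired analysis was possible because each genotype has a single library. The count of members at least 2-fold higher in KO Th1 was 0 under every alternative. The count of members at least 2-fold lower, 2 as deposited, was 1 without a pseudocount (S100a4 then has no value), at a 3-fold line and with more than 3 reads required, 0 among well expressed members, and 4 when a fall of 20% was enough. The alternatives on reads and on the log2 value, and the medians without S100a4, were chosen after seeing the data. The median log2 fold change of the 10 members, -0.048, was 0.068 when scaled to Actb, 0.094 with equal totals without Rn45s and 0.038 with the GC trend removed. That of the 4 annexins, 0.12, was 0.24 under the Actb scaling, 0.26 with equal totals without Rn45s and 0.19 with quantile normalization. The cause of these moves was not tested. The median of the 5 S100 genes, -0.33 as deposited and -0.18 without S100a4, was negative under each alternative. As deposited it was the value of S100a6, which had 38 and 30 reads and 0 inside its counting interval. Over the 3 well expressed S100 members the median was -0.018. Anxa1 was past 2-fold under all 9 alternatives. With median transcript lengths, 8 of 10 members kept their place in the order of levels in WT Th1 and 7 of 10 in KO Th1. Depth limits S100a4, S100a6 and Anxa1, with at most 43 reads.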
